A study of Homo sapiens with 4 samples.

Results

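The genes described here encode the subunits of the ligand-gated ion channels, the receptors that open a pore through the cell membrane when a transmitter binds. They were taken as the protein-coding genes whose symbols begin with GABR, GLRA, GLRB, GRIA, GRID, GRIK, GRIN, CHRN, HTR3 or P2RX and name a receptor subunit, and 70 of 19951 annotated protein-coding genes met this rule. Genes that begin alike but encode no receptor subunit, such as GRINA and the readthrough gene P2RX5-TAX1BP3, were left out. The study compared human liver cancer cells before and after sonodynamic therapy (SDT), in which ultrasound activates a sensitizer inside the cells. The 4 groups were untreated HepG2 cells (A), HepG2 cells after SDT (B), untreated Huh7 cells (C) and Huh7 cells after SDT (D), with 1 library in each. SDT was given with targeted nanobubbles that carried lonidamine (LND), an inhibitor of energy metabolism, together with the sensitizer hematoporphyrin monomethyl ether (HMME), under low-frequency ultrasound. The labels give no treatment for the untreated cells, so the effects of the bubbles, their drugs and the ultrasound cannot be told apart in these comparisons. Each comparison rests on a single cell line and on 1 library a side, and no value below has a replicate error.

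Ligand-gated ion channels are known mainly from synapses. Receptors for GABA and glycine conduct chloride and usually quiet a neuron, whereas the nicotinic acetylcholine receptors, the 5-HT3 serotonin receptors, the ionotropic glutamate receptors and the ATP-gated P2X receptors conduct cations, and several of them let calcium into the cell. The GABA-A, glycine, nicotinic and 5-HT3 subunits form the Cys-loop superfamily and assemble as pentamers, the glutamate receptor subunits as tetramers and the P2X subunits as trimers. Several of these subunits have also been found outside the nervous system.

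The measured quantity was whether a gene stood in the list of differentially expressed mRNAs of a cell line, B vs. A for HepG2 and D vs. C for Huh7, as the authors called them. The lists were read from the tables of Gene Ontology (GO) terms, which give for every term the identifiers of the listed genes. A gene under no GO term cannot appear in these lists. The tables hold no expression value, no direction and no depth, so that a listed gene may have been higher or lower after SDT. How near an unlisted gene came to the authors' threshold is not known. The level of a listed gene is not known either, and it may have been very low. Some lncRNAs that the paper selected were called at very low levels. Listing therefore does not show that a receptor was made. In whole cultures, a change in the number of cells that carry a transcript and a change in its level per cell cannot be told apart. Without expression values, the identity of the HepG2 and Huh7 cells could not be checked against marker genes. The genes called listed here were selected on the authors' differential calls in these same libraries, so the counts below are given as a description, with no test of the lists or of the difference between the cell lines.

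In HepG2 cells 20 of the 70 subunit genes were listed, which is 28.6%, beside 23.9% of all protein-coding genes (4768 of 19951). In Huh7 cells 28 were listed, which is 40.0%, beside 21.9% of all protein-coding genes (4360 of 19951). The share in HepG2 cells thus lay near that of all genes, and the share in Huh7 cells was higher. Of the subunit genes, 12 were listed in both lines (17.1%, beside 11.4% of all protein-coding genes), 8 in HepG2 cells alone, 16 in Huh7 cells alone and 34 in neither. The 12 shared genes made up 60.0% of the subunit genes listed in HepG2 cells and 42.9% of those listed in Huh7 cells. For all protein-coding genes, the 2276 shared genes made up 47.7% and 52.2% of the lists.

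The 12 genes listed in both lines came from 6 of the 9 receptor classes. Among them were the GABA-A subunit gene GABRR2, the glycine receptor gene GLRA2, the kainate receptor gene GRIK2, the NMDA receptor genes GRIN1, GRIN2C and GRIN3B, the nicotinic receptor genes CHRNA1, CHRNA3, CHRNA6 and CHRNA7, and the P2X receptor gene P2RX7. No AMPA or 5-HT3 subunit gene was listed in both. The tables of KEGG pathways, which were deposited beside the GO tables, held the same 20 subunit genes in HepG2 cells and the same 28 in Huh7. Both kinds of table draw on the same differential calls, so this is no separate support. The KEGG tables of HepG2 and Huh7 cells held 8.46% and 8.19% of all protein-coding genes, since these tables hold only genes placed in a pathway.

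**Figure D1:**
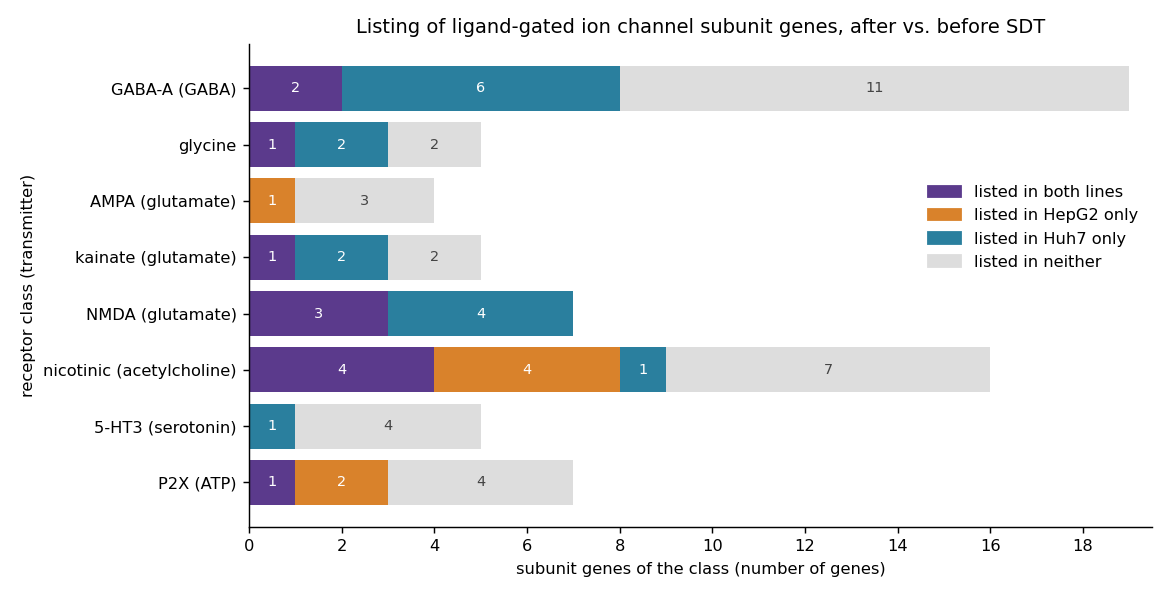
Stacked bars count the subunit genes of 8 receptor classes, with the number of genes on the horizontal axis. Purple marks genes listed in both lines, orange those listed in HepG2 only, blue those listed in Huh7 only and grey those listed in neither, and the NMDA bar has no grey part.

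Among the 12 shared genes, the promoters of CHRNA7, GRIK2 and P2RX7 are shown, as the Cys-loop, ionotropic glutamate and P2X gene found under the most GO terms among those with an entry in the RefSeq promoter table (GRCh38.p14). CHRNA7 (ENSG00000175344), which encodes the alpha subunit of a nicotinic receptor with high calcium permeability, stood under 291 GO terms. GRIK2 (ENSG00000164418), a pore-forming kainate receptor subunit, stood under 230 terms, and P2RX7 (ENSG00000089041), the ATP receptor known for opening at high extracellular ATP, under 655. The number of terms measures how much is annotated about a gene, and was the same in both tables for all 12 shared genes. Each sequence holds the 250 bases before the most upstream start in the table, on the plus strand. Capitals mark the GC box GGGCGG on either strand, a motif bound by the SP family of transcription factors, and overlapping matches run together.
CHRNA7, chr15:32030233-32030482: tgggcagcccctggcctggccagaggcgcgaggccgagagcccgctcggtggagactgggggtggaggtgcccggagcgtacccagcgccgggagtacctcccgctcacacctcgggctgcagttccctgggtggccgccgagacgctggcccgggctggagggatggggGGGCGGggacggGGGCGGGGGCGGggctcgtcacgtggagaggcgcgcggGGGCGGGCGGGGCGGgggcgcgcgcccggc
GRIK2, chr6:101393458-101393707: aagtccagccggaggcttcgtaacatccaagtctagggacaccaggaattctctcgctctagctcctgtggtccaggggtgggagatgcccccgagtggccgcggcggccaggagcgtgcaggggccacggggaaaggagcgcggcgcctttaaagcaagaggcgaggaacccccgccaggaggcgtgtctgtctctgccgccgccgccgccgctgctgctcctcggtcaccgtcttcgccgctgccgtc
P2RX7, chr12:121132626-121132875: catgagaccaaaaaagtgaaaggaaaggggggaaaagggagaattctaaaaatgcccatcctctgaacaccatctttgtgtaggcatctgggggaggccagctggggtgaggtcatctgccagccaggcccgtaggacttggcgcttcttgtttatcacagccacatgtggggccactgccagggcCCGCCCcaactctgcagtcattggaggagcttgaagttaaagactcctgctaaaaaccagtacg
The CHRNA7 promoter held 6 GC boxes, 31 CpG dinucleotides and 80.4% G and C. The GRIK2 promoter held 0 GC boxes but 25 CpG and 68.0% G and C, and the P2RX7 promoter 1 GC box, 4 CpG and 53.2% G and C. Over the 8 shared genes with an entry, the G and C content ran from 44.8% to 80.4%.

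Over the 46 subunit genes with an entry, 54.3% held GGGCGG on either strand within these 250 bases, beside 42.2% of the 27305 genes of the table. The motif stood in 5 of 8 promoters of genes listed in both lines, in 2 of 5 listed in HepG2 cells alone, in 8 of 13 listed in Huh7 cells alone and in 10 of 20 listed in neither. The median G and C content was 60.6%, 60.4%, 63.6% and 57.2% in these groups, beside 57.6% over the table. The letters TATAAA, on either strand, were found in 4.35% of the subunit promoters and in 11.2% of all promoters. A match is a description of the sequence and no measure of binding.

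GABA-A receptors are pentamers built from a family of 19 subunit genes. In HepG2 cells 2 of the 19 were listed (10.5%, below the 23.9% of all genes), and in Huh7 cells 8 (42.1%, above the 21.9% of all genes). Both genes of HepG2 cells were also listed in Huh7 cells. Of these, GABRR2 encodes a rho subunit of the retina. Among the 6 genes listed in Huh7 cells alone were the alpha subunit genes GABRA2 and GABRA4, the beta subunit gene GABRB1 and the rho subunit gene GABRR1. Alpha and beta subunits together carry the GABA binding site. The 11 genes listed in neither included GABRD, GABRE, GABRP, GABRQ and GABRR3.

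Glycine receptors open the main inhibitory chloride channel of the spinal cord. GLRA2, an alpha subunit gene active early in development, was the only listed gene of the 5 in HepG2 cells (20.0%). In Huh7 cells 3 of 5 were listed (60.0%), GLRA2 together with GLRA1, the adult spinal subunit, and GLRA3. GLRA4 and GLRB, the beta subunit gene whose product holds the receptor at the synapse, were listed in neither. Taken as chloride channels, 3 of the 24 GABA-A and glycine subunit genes were listed in HepG2 (12.5%) and 11 in Huh7 (45.8%). Of the 46 subunit genes of cation channels, 17 stood in each list (37.0%), and 9 of these were the same genes (52.9% of each). These equal totals joined classes that differed in opposite ways. In HepG2 and Huh7 cells, NMDA had 3 and 7 listed genes, kainate 1 and 3, and 5-HT3 0 and 1. Nicotinic had 8 and 5, P2X 3 and 1, and AMPA 1 and 0. This grouping by ion was not among the planned comparisons. Among all protein-coding genes, 23.9% were listed in HepG2 and 21.9% in Huh7 cells, and the shared genes made up 47.7% and 52.2% of the lists.

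NMDA receptors are glutamate receptors that need glycine or serine beside glutamate and that conduct calcium. All 7 NMDA subunit genes were listed in Huh7 cells, and 3 of 7 in HepG2 cells (42.9%). Of all protein-coding genes, 21.9% were listed in Huh7 and 23.9% in HepG2 cells. The obligatory subunit gene GRIN1 was listed in both lines. Of the GRIN2 genes, whose products bind glutamate and set the opening kinetics, GRIN2C was listed in both lines and GRIN2A, GRIN2B and GRIN2D in Huh7 cells alone. Of the GRIN3 genes, whose products bind glycine and lower the calcium flow, GRIN3B was listed in both lines and GRIN3A in Huh7 cells alone. No other class was listed as a whole in either line. Without the NMDA genes 17 of 63 subunit genes were listed in HepG2 (27.0%) and 21 in Huh7 (33.3%), so that the share in Huh7 cells stayed above that of all genes.

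The AMPA and kainate genes were listed in smaller numbers than the NMDA genes. AMPA receptors carry most fast excitatory transmission, and of their 4 subunit genes GRIA4 was listed in HepG2 cells and none in Huh7. GRIA1, GRIA2 and GRIA3 were listed in neither. Of the 5 kainate receptor genes GRIK2 was listed in both lines, GRIK1 and GRIK5 in Huh7 cells alone, and GRIK3 and GRIK4 in neither. The listed shares were 25.0% in HepG2 and 0% in Huh7 cells for AMPA, and 20.0% and 60.0% for kainate. Among all protein-coding genes they were 23.9% and 21.9%. GRIK5 encodes a high-affinity subunit that needs a partner such as the GRIK2 product to form a channel.

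**Figure D2:**
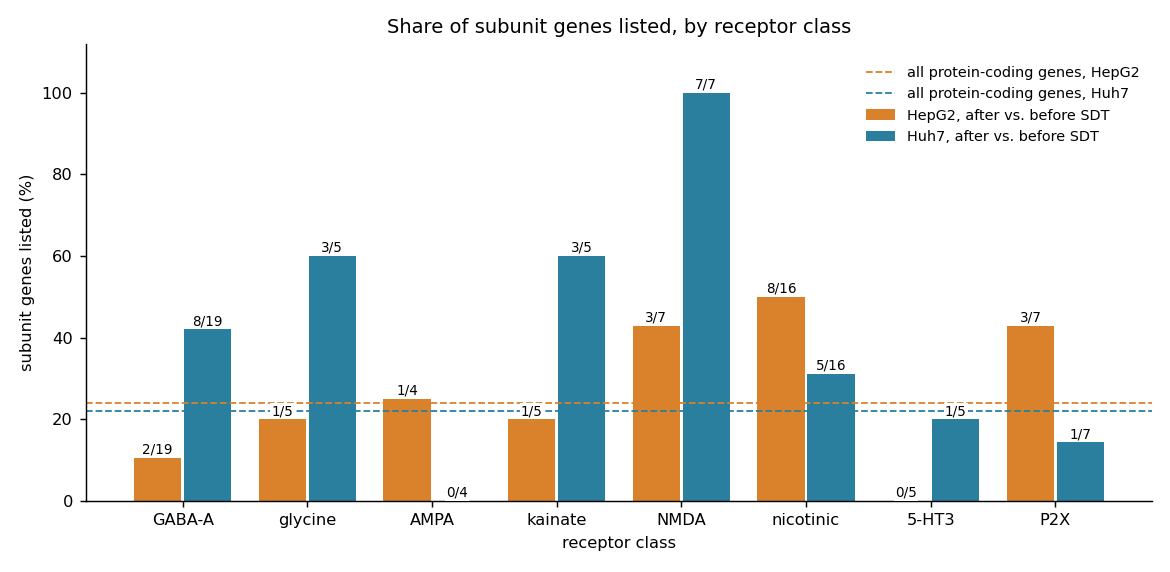
The bars show the percentage of the subunit genes of 8 receptor classes that were listed in HepG2 (orange) and Huh7 (blue) cells, with the counts above them. The dashed lines mark all protein-coding genes, 23.9% in HepG2 and 21.9% in Huh7 cells. The NMDA class reached 7 of 7 in Huh7 cells, the GABA-A class lay below the line in HepG2 cells and above it in Huh7, and the nicotinic and P2X classes were higher in HepG2 cells.

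Nicotinic receptors are the acetylcholine-gated channels of muscle, ganglia and brain, and more of their genes were listed in HepG2 than in Huh7 cells. In HepG2 cells 8 of the 16 nicotinic subunit genes were listed (50.0%), and in Huh7 cells 5 (31.2%). Among all protein-coding genes the shares were 23.9% and 21.9%. Both lines shared CHRNA1, the alpha subunit gene of muscle, CHRNA3, the main alpha subunit gene of autonomic ganglia, CHRNA6, a subunit gene of dopamine neurons, and CHRNA7. HepG2 cells alone had CHRNA5, which encodes an accessory subunit, CHRNA10, a subunit gene of the cochlea, CHRNB1, the beta subunit gene of muscle, and CHRNB2, the most common beta subunit gene of the brain. Huh7 cells alone had CHRNB4, the beta subunit gene of ganglia. CHRNA2, CHRNA4, CHRNA9, CHRNB3, CHRND, CHRNE and CHRNG were listed in neither. Of the 5 muscle-type genes, 2 were thus listed in HepG2 cells and 1 in Huh7, and of the 11 other genes 6 and 4.

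The 5-HT3 receptors are the serotonin-gated channels. Of their 5 subunit genes none was listed in HepG2 cells and HTR3C in Huh7. HTR3A, which encodes the subunit every 5-HT3 receptor needs, was listed in neither, as were HTR3B, HTR3D and HTR3E. P2X receptors are opened by extracellular ATP. P2RX7 was listed in both lines, and P2RX4, which is also found in lysosomes, and P2RX5 in HepG2 cells alone. This gave 3 of 7 P2X genes in HepG2 cells (42.9%) and 1 in Huh7 (14.3%). Among all protein-coding genes the shares were 23.9% and 21.9%. P2RX1, P2RX2, P2RX3 and P2RX6 were listed in neither.

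For a few genes the list depends on how reads were divided between similar transcripts, which the sources used here do not describe. Over stretches of 75 bases, pooled from all annotated transcripts of a gene, 64 of the 70 subunit genes had at least 99% to themselves. The exceptions were P2RX5 (62.9%, with 37.1% also in P2RX5-TAX1BP3), CHRNA7 (77.9%, with 22.1% also in CHRFAM7A), CHRNB1 (89.9%), HTR3C (96.7%) and CHRNA10 (97.9%), all of them listed genes, and HTR3D, which shared 1.02% with HTR3E and was listed in neither line. CHRFAM7A is a fusion gene that holds a copy of the second part of CHRNA7. On the principal CHRNA7 transcript, 81.4% of the stretches also occur in CHRFAM7A. The principal transcripts of the other subunit genes were not compared, so their pooled shares may overstate how well reads can be assigned. CHRFAM7A was itself listed in both lines, and stood with CHRNA7 under extracellular ligand-gated ion channel activity and the acetylcholine-gated channel complex but not under acetylcholine-gated cation channel activity. The sequence below runs across the point where the copy begins, with 45 coding bases of exon 4 (chr15:32111855-32111899, GRCh38, plus strand) in lower case and the first 45 coding bases of exon 5 (chr15:32153907-32153951) in capitals.
CHRNA7, exons 4 and 5: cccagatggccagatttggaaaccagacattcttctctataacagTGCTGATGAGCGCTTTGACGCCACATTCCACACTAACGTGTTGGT
From the capitals onward, 88.0% of the stretches of this transcript occur in CHRFAM7A as well, and a read that lies in them cannot be placed by its sequence alone. Without CHRNA7 and P2RX5, 18 of 68 subunit genes were listed in HepG2 (26.5%) and 27 in Huh7 cells (39.7%). Among all protein-coding genes the shares were 23.9% and 21.9%.

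Many subunit genes are neighbours on a chromosome, and such neighbours can be compared by their listing. The annotation held 13 runs of subunit genes with no other protein-coding gene between them, with 31 genes in all. In the run of CHRNA5, CHRNA3 and CHRNB4 on chromosome 15, the ganglionic gene group, CHRNA3 was listed in both lines, CHRNA5 in HepG2 cells alone and CHRNB4 in Huh7 cells alone. P2RX7 and P2RX4 are neighbours on chromosome 12, and both were listed in HepG2 cells. GABRA4 and GABRB1, which overlap on opposite strands of chromosome 4, were both listed in Huh7 cells and not in HepG2 cells. GABRR1 and GABRR2 on chromosome 6 were both listed in Huh7 cells. Of the 36 subunit genes listed in at least 1 line, 12 overlapped another protein-coding gene. Such overlap also occurred among genes listed in neither, such as GLRA4, CHRNE and P2RX6, and its share over all genes was not counted. The library kit kept the strand, but whether the strand was used in counting is not given in the sources used here.

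The genes listed in Huh7 cells alone had the longest transcripts by their median. The median longest transcript was 3984 bases in the genes listed in both lines, 4140 in those of HepG2 cells alone, 5452 in those of Huh7 cells alone and 3414 in those listed in neither. Over all protein-coding genes with a transcript, the medians of the same classes were 3294, 3367, 3230 and 3079 bases. Of the 44 subunit genes at or above the median of all genes (3157 bases), the HepG2 list held 31.8% and the Huh7 list 47.7%. Of the 26 shorter ones, 23.1% and 26.9% were listed. For all protein-coding genes the shares were 25.3% and 22.8% above the median and 22.5% and 21.0% below it. The NMDA genes ranged from 3281 bases for GRIN3B, below the median of 3656 over all 70 subunit genes, to 30355 for GRIN2B. The part of transcript length in the listing was not tested.

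**Figure D3:**
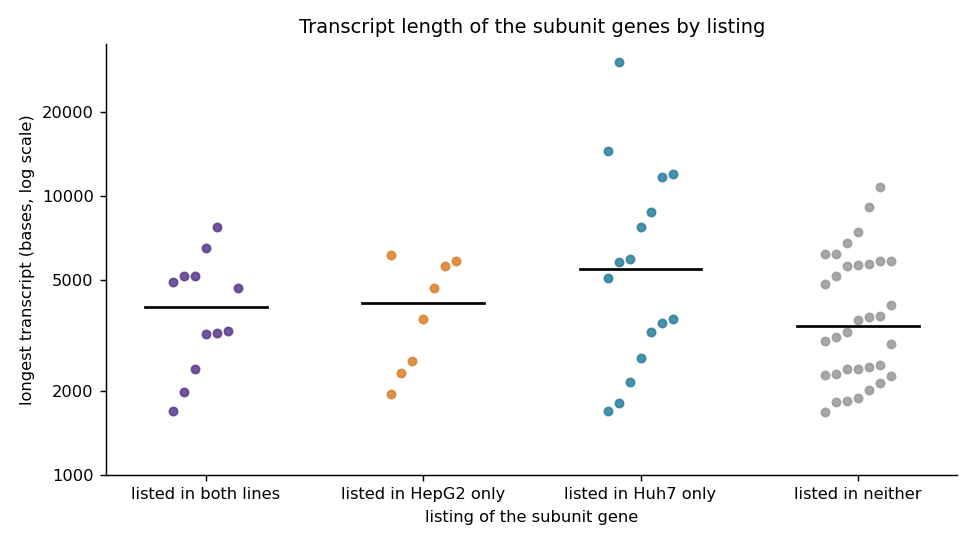
Each point is the longest annotated transcript of a subunit gene, in bases on a log scale, by the lists that held the gene, and the black lines are medians. The medians run from 3414 bases in genes listed in neither to 5452 in genes listed in Huh7 only, and all 4 groups overlap.

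The GO terms give the same genes beside other genes of the same function. Under extracellular ligand-gated ion channel activity, 23 of 79 background genes were listed in HepG2 and 29 in Huh7 cells. Of these, 20 and 28 were the subunit genes, and the others were CHRFAM7A in both lines and SLC17A7 and TRPV1 in HepG2 cells. Under the wider term ligand-gated ion channel activity, 54 of 159 genes were listed in HepG2 (34.0%) and 58 in Huh7 (36.5%). The shares of the authors' whole GO background were 21.6% and 19.7%. Under this wider term the subunit genes made up 20 and 28. The remaining 34 and 30 included channels opened by internal ligands, potassium channels and genes that encode no channel. The term ligand-gated channel activity held the same numbers.

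The terms of single transmitters separated the lines as the classes did. Of the authors' whole GO background, 21.6% were listed in HepG2 and 19.7% in Huh7 cells. GABA-A receptor activity had 2 of 19 genes in HepG2 cells (10.5%) and 8 in Huh7 (42.1%), all of them subunit genes. GABA receptor activity added GABBR1, a subunit of the metabotropic GABA-B receptor, in both lines and GABBR2 in Huh7 cells. This gave 3 and 10 of 28 genes (10.7% and 35.7%). Ionotropic glutamate receptor activity had 6 and 10 of 19 genes (31.6% and 52.6%). The NMDA selective glutamate receptor complex had 3 and 7 of 11 (27.3% and 63.6%). Glutamate receptor activity, which includes the metabotropic receptors, had 12 and 13 of 27 genes (44.4% and 48.1%), so that the lines lay close together there. In HepG2 cells 6 of those 12 were metabotropic receptor genes (among them GRM2, GRM3, GRM4, GRM7 and GRM8) and in Huh7 cells 3 of 13 (among them GRM4 and GRM7). Under ionotropic glutamate receptor complex, 8 and 16 of 47 genes were listed (17.0% and 34.0%), among them 6 and 10 subunit genes. The HepG2 share there lay below that of the GO background.

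For acetylcholine the order was again the other way. Acetylcholine-gated cation channel activity had 8 of 19 genes in HepG2 cells (42.1%) and 5 in Huh7 (26.3%), all of them nicotinic subunit genes. The shares of the authors' whole GO background were 21.6% and 19.7%. The acetylcholine-gated channel complex had 8 and 6 of 18 genes, CHRFAM7A among them in both lines, and acetylcholine receptor activity 10 and 7 of 21, with the muscarinic receptor gene CHRM3 in HepG2 cells and CHRM1 in Huh7. Excitatory extracellular ligand-gated ion channel activity had 8 and 5 of 20 genes, of which 6 and 5 were subunit genes. Among terms noticed after their values had been seen, extracellular ATP-gated cation channel activity had 3 and 1 of 8 genes, and extracellular-glycine-gated chloride channel activity 1 and 3 of 5.

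The terms for the site of the receptors hold many other proteins. At the postsynaptic membrane 72 of 262 genes were listed in HepG2 (27.5%) and 78 in Huh7 (29.8%), of which 17 and 26 were subunit genes. In the postsynaptic density 71 and 75 of 274 genes were listed (25.9% and 27.4%), with 4 and 7 subunit genes. Of the authors' whole GO background, 21.6% and 19.7% were listed. The ion channel complex had 102 and 104 of 268 genes (38.1% and 38.8%), with 10 and 16 subunit genes. Genes other than receptor subunits were therefore the larger share of these terms in both lines.

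**Figure D4:**
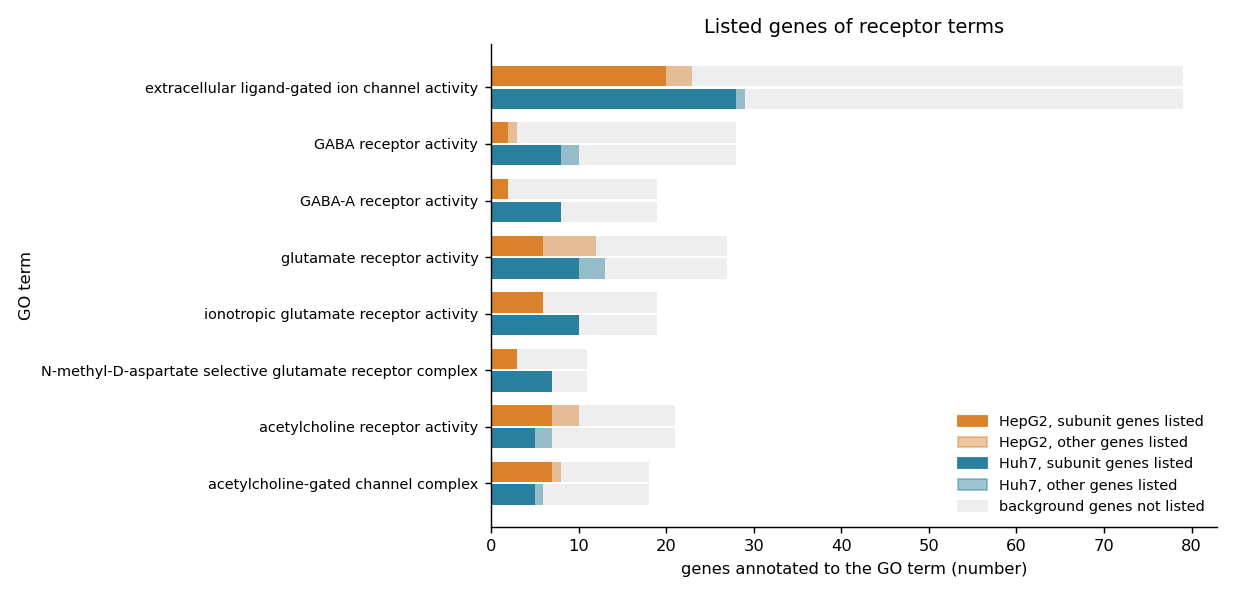
Bars give the number of genes under each GO term, with subunit genes in full colour, other listed genes in pale colour and background genes that were not listed in grey, for HepG2 (orange, upper bar) and Huh7 (blue, lower bar) cells. Huh7 cells had more listed genes under the GABA and glutamate terms, with 8 against 2 for GABA-A receptor activity, and HepG2 cells more under the acetylcholine terms, with 10 against 7 for acetylcholine receptor activity.

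In the KEGG tables, 4 pathways held 5 or more listed subunit genes in HepG2 cells and 15 in Huh7. Many of these pathways held the same subunit genes, so these numbers count genes repeatedly. Of all protein-coding genes, 23.9% were listed in HepG2 and 21.9% in Huh7 cells. The pathway with the most subunit genes was Neuroactive ligand-receptor interaction, a collection of receptors of all kinds with 275 background genes. In HepG2 cells it held 20 subunit genes among 88 listed genes (32.0% of the pathway). In Huh7 cells it held 27 among 87 (31.6%). HTR3C was the listed gene of Huh7 cells that this pathway did not hold. In Nicotine addiction, which collects receptor subunits, 9 of 12 listed genes were subunit genes in HepG2 cells and 17 of 18 in Huh7, of 40 background genes. Calcium signaling pathway held 6 subunit genes in each line, with CHRNA7, GRIN1, GRIN2C and P2RX7 in both, P2RX4 and P2RX5 in HepG2 cells and GRIN2A and GRIN2D in Huh7. Its listed genes numbered 59 and 60 of 180 (32.8% and 33.3%).

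Several pathways held the same subunit genes under different names. The 8 GABA-A genes of Huh7 cells stood in GABAergic synapse (31 of 90 genes listed), Morphine addiction (31 of 93) and Retrograde endocannabinoid signaling (28 of 103). In HepG2 cells they held 2, 2 and 3 subunit genes. The 7 NMDA genes of Huh7 cells stood in Amphetamine addiction (27 of 68), Cocaine addiction (19 of 50), cAMP signaling pathway (73 of 200) and Alcoholism (74 of 180), and, with 3 kainate genes, in Glutamatergic synapse (31 of 116). In HepG2 cells the subunit genes numbered 4, 3, 4 and 3 in the first 4 of these, and 5 in Glutamatergic synapse, which also had 31 listed genes. GRIN1 and the 4 GRIN2 genes of Huh7 cells were the subunit genes of Circadian entrainment (33 of 97), Alzheimer's disease (25 of 168), Amyotrophic lateral sclerosis (9 of 51) and Long-term potentiation (23 of 67). Counts in these pathways are not independent of each other. Of the pathways named in this paragraph, the listed share ran from 15.5% (Alzheimer's disease) to 41.7% (Alcoholism) in HepG2 cells. In Huh7 cells it ran from 14.9% to 41.1% in the same 2 pathways. Glutamatergic synapse had 26.7% in each line, and GABAergic synapse 24.4% in HepG2 and 34.4% in Huh7. Among all protein-coding genes the shares were 23.9% and 21.9%.

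Ligand-gated channels act with enzymes that make their transmitters, carriers that remove them, and proteins that anchor the receptors. The companion genes counted here also include auxiliary subunits, modulators, release channels and 37 metabotropic receptor genes. Of 131 companion genes, 46 were listed in HepG2 (35.1%) and 45 in Huh7 (34.4%), and 27 in both (20.6%). Over all protein-coding genes these shares were 23.9%, 21.9% and 11.4%. The metabotropic receptor genes made up 16 of the 46 and 10 of the 45, so the nearly equal totals depend on including them. Beside these totals, 20 and 28 subunit genes were listed. For GABA, 11 of 19 companions were listed in each line (57.9%), 9 of them in both. Among these were ALDH5A1, which breaks down GABA products, the GABA carriers SLC6A12 and SLC6A13, GABBR1, and the trafficking and anchoring genes GABARAPL1, GABARAPL2, PLCL1 and LHFPL4. HepG2 cells, with 2 listed GABA-A subunit genes, thus had as many listed GABA companions as Huh7 cells, with 8.

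For glutamate, 12 of 49 companions were listed in HepG2 (24.5%) and 14 in Huh7 (28.6%), 5 of them in both. Among them were the glutamate carrier SLC1A7, the metabotropic receptor genes GRM4 and GRM7, and the scaffold gene DLG2, a member of the family that anchors NMDA receptors. Auxiliary subunits, which steer AMPA and kainate receptors, were listed for 1 of 14 genes in HepG2 cells and 3 of 14 in Huh7, and scaffolds for 1 and 4 of 14. For glycine, 1 of 4 companions was listed in each line, GLDC, which breaks down glycine in the mitochondria.

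For acetylcholine, 7 of 20 companions were listed in HepG2 and 6 in Huh7 cells, with ACHE, the enzyme that splits acetylcholine, and the nicotinic receptor modulators LYPD1 and LYPD6 in both. Chaperones, clustering proteins and modulators of nicotinic receptors were listed for 5 of 10 genes in HepG2 cells and 2 of 10 in Huh7. For serotonin, 9 and 7 of 20 companions were listed, although only 1 of the 5-HT3 genes was listed in either line. TPH1 and TPH2, which start serotonin synthesis, the serotonin carrier SLC6A4, the breakdown enzymes MAOA and MAOB, and the receptor gene HTR2C were listed in both. For ATP, 6 of 19 companions were listed in each line, with the ATP release channel genes PANX2 and PANX3 and the nucleotide receptor gene P2RY6 in both. Over all transmitters, 16 of 37 metabotropic receptor genes were listed in HepG2 (43.2%) and 10 in Huh7 (27.0%), beside 23.9% and 21.9% of all protein-coding genes.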

How the data were processed

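Total RNA of 4 libraries, 1 in each group, was depleted of ribosomal RNA and sequenced by the authors with a strand-keeping kit. The submitters' processing notes name HISAT2, Bowtie2 2.2.8, StringTie 1.3.1 and Cuffdiff 2.1.1, and no role or genome build. The paper's methods name Cuffdiff for the differential calls at an adjusted p-value under 0.05, and its results name edgeR. The deposited values used here are gene identifiers and gene counts (not read counts) under each GO term and KEGG pathway. The deposited p-value columns of these terms hold the authors' own findings and were not used, and no column of per-sample values was given.

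The list of a cell line was the union of identifiers over the rows of its GO table, 4783 in HepG2 and 4369 in Huh7, which equalled the list size in each table, of 22148 background genes. Groups came from the sample labels. Symbols, gene types, neighbours and transcripts came from GENCODE release 29 by identifier (all 70 subunit symbols also matched the gene name table), and promoters from RefSeq, without the 50 bases after the start. Transcript stretches of 75 bases were compared over all transcripts of a gene. Parsing was tested on simulated tables. Python 3.11.15 and SciPy 1.17.1 were used. Depth is unknown, so no interval that needs it is given.

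The members, their companion genes and the naming rules were chosen with earlier results of these data known. Every subunit gene was to be named, but a few genes and 1 small class are not reported here by name and remain in the totals. The GO terms named in the rule are the 15 molecular function or cellular component terms with the most listed subunit genes among those that name a transmitter receptor, with at least 5 background genes and at least 3 listed subunit genes in a line, together with ion channel complex. The KEGG pathways named hold at least 5 listed subunit genes in a line. Companion genes are named where both lines listed them. The rule for sequences was written for proteins, which were not used here, and was applied to promoters. The alternatives were other lists (GO or KEGG, KEGG alone, molecular function terms alone), other sets of subunit genes, another background and wider terms.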

Additional observations from a re-analysis of the deposited data

How the results depend on the processing

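No paired analysis was possible because each group holds 1 library and no test was run. Of 64 alternative values, 45 stayed within 1.5 times the count or within the 95% Wilson interval of the share, which covers counting error only, and 19 moved. For the subunit genes the interval ran from 19.3% to 40.1% in HepG2 and from 29.3% to 51.7% in Huh7 cells. A subunit share could thus shift widely and still count as staying. The interval takes the subunit genes as independent draws, but they are the complete set under the rule, and some are neighbours or overlap. It holds no error between libraries and served only as the mark for staying. It cannot test a subunit share against that of all genes, or the cell lines against each other. All values were the same with the GO or KEGG tables together, the KEGG tables alone or molecular function terms alone for the subunit genes. These lists draw on the same differential calls of each line, so their sameness says nothing about the calls themselves. The values from these settings are among the 45 that stayed. So are the companion counts with the KEGG tables alone, 34 in HepG2 and 32 in Huh7 cells, although they were lower than the main 46 and 45. Most moved values follow from a smaller set of genes. With the longer subunit genes only (at least 3656 bases), the counts listed in HepG2, Huh7, both, HepG2 alone and Huh7 alone were 10, 15, 6, 4 and 9. With Cys-loop genes only they were 11, 17, 7, 4 and 10, and with glutamate and P2X genes only 9, 11, 5, 4 and 6. Against the authors' GO background, the share of all genes listed was 21.6% in HepG2 and 19.7% in Huh7 cells. The ion channel complex in place of extracellular ligand-gated ion channel activity held 10 and 16 subunit genes. Leaving out the NMDA genes, or CHRNA7 and P2RX5, was chosen after seeing the data. With 1 library a group, no library could be left out, and how low a listed or unlisted gene was is not known.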

Other observations

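Under ligand-gated ion channel activity, the genes other than the receptor subunit genes numbered 34 in the HepG2 list and 30 in the Huh7 list, not all of them channels. Of these, 17 were the same genes, which is 50.0% and 56.7% of each. This lies near the shared part of the lists over all protein-coding genes, 47.7% and 52.2%. The genes named here were chosen after their listing had been seen. RYR2 and RYR3, which release calcium from the endoplasmic reticulum, were listed in both lines, as were ASIC1 and ASIC3, which are opened by protons. Of the inward rectifier potassium channels (KCNJ), 7 were listed in HepG2 and 9 in Huh7 cells, 4 of them in both. Intracellular ligand-gated ion channel activity had 10 of 24 genes listed in HepG2 cells and 6 in Huh7, none of them a subunit gene described above. Of the authors' whole GO background, 21.6% were listed in HepG2 and 19.7% in Huh7 cells. The difference between the lines was not tested.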
